A study of Homo sapiens with 5 samples.

Results

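The mitosis genes described here are 10 protein-coding genes chosen by Ensembl identifier: CDK1 (ENSG00000170312), CCNB1 (ENSG00000134057), PLK1 (ENSG00000166851), AURKA (ENSG00000087586), BUB1 (ENSG00000169679), CDC20 (ENSG00000117399), KIF11 (ENSG00000138160), CENPF (ENSG00000117724), TOP2A (ENSG00000131747) and MKI67 (ENSG00000148773). All 10 were among the 20001 genes of the table, and all 10 passed the filter on low counts that left 13400 genes for testing. They were followed in PRO-seq, in which RNA polymerases engaged on the DNA add biotin-labelled nucleotides in permeabilised cells, so that counts report transcription in progress and not accumulated mRNA. The libraries came from HEK293T, an established line derived from human embryonic kidney that expresses the large T antigen of SV40, with a genomic landing pad for inserted DNA. In 3 libraries the landing pad held CAG, a synthetic promoter of high activity, and in 2 it held PGK, from a housekeeping gene of sugar metabolism; these are called the CAG and PGK lines. Cells of both lines were harvested at 70% confluence, and no drug, arrest or synchronisation is named. The series text calls the lines monoclonal, so the promoter and the clone cannot be told apart. Nothing in the labels says that replicates came from separate cultures, so p-values here measure only a spread between libraries that may be technical.

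Mitosis is driven by the kinase CDK1 once it is bound to cyclin B1, the product of CCNB1. Genes of this group are transcribed mainly in late S, G2 and mitosis, when repression by the DREAM complex is relieved and the MuvB core instead joins B-MYB and FOXM1. DREAM and MuvB reach many of these promoters through the CHR element, often with CCAAT boxes upstream that bind NF-Y. In a culture that is not synchronised, their nascent transcription depends on how many cells are in those phases and on the output of each cell, and in bulk libraries these cannot be told apart. Several of the proteins are destroyed at the end of mitosis by the anaphase-promoting complex, a step that nascent RNA does not report.

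Promoter windows from RefSeq (GRCh38.p14, 250 bases before to 50 bases after the annotated start) were matched by symbol for 9 of the 10 genes, in 10 windows since CDK1 has 2 starts. AURKA had no entry. The CHR was searched as TTTGAA or TTCGAA and the CCAAT box as CCAAT, on both strands. A CHR match lay in the windows of 8 of the 9 genes, and 16.4% of all 35116 windows in the table hold one. A CCAAT match lay in the windows of all 9, against 34.6% of all windows, and 7 of the 9 had at least 2 in a window, against 10.8%. The E2F-like motifs TTTCGCG or TTTGGCG or TTTCCCG were found for 3 genes (CDK1, MKI67 and KIF11), against 7.21% of all windows. In the windows of protein-coding genes alone the shares were 13.7% (CHR), 34.7% (CCAAT), 11.4% (at least 2 CCAAT) and 8.84% (E2F-like). The shares are per window and the counts per gene, so CDK1 with its 2 windows had more room for a match. Matches of different motifs could overlap, as a CHR and a CCAAT match of MKI67 do. They are descriptions of the letters and not sites of binding. For each gene with a CHR match, one near the start is shown because this element is well known in promoters of this kind. CDK1 and MKI67 have 2 shown each, and CCNB1, which had no CHR match, has a CCAAT match shown. Each is 30 bases on the strand of the gene, with the motif in capitals.
CDK1, chr10:60778453-60778482, plus strand: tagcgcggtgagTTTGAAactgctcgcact
CDK1, chr10:60778475-60778504, plus strand: ctcgcacttggcTTCAAAgctggctcttgg
PLK1, chr16:23678848-23678877, plus strand: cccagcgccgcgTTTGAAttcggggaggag
BUB1, chr2:110678045-110678074, minus strand: ctgcgcggggtaTTCGAAtcggcggcggct
CDC20, chr1:43358904-43358933, plus strand: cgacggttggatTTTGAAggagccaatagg
KIF11, chr10:92593090-92593119, plus strand: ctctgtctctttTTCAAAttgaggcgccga
CENPF, chr1:214603215-214603244, plus strand: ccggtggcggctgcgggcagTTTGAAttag
TOP2A, chr17:40418030-40418059, minus strand: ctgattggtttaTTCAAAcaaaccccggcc
MKI67, chr10:128126435-128126464, minus strand: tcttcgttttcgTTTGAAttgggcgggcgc
MKI67, chr10:128126453-128126482, minus strand: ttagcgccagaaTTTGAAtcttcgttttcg
CCNB1 (CCAAT), chr5:69167083-69167112, plus strand: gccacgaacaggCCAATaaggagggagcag

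Counted from the annotated start, the printed CHR match began 29 bases upstream for PLK1, 65 for CDC20 and 28 for KIF11, where it lay on the opposite strand. At the downstream start of CDK1, 1 printed match began 13 bases upstream and the other, on the opposite strand, 9 bases downstream, and a further match lay 69 bases upstream. In MKI67 the matches began 29 and 47 bases upstream. TOP2A differed, with its nearest match 151 bases upstream on the opposite strand. In BUB1 and CENPF the match lay just downstream of the start, at 1 and 40 bases. The CCAAT matches of CCNB1 began 55 and 87 bases upstream.

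Fitted differences in nascent transcription of the mitosis genes between the CAG and PGK lines were small, with log2 fold changes from -0.34 to 0.013, and 3 genes fell. MKI67, which encodes the proliferation marker Ki-67, fell by 0.34 on the log2 scale, TOP2A, which encodes DNA topoisomerase II alpha, fell by 0.20, and CENPF, which encodes a large kinetochore protein, fell by 0.19 (CAG over PGK). Thus 3 of 10 genes were called lower in the CAG line and 0 higher, by edgeR's quasi-likelihood test at a Benjamini-Hochberg adjusted p under 0.05 over all genes. Of all tested genes 43.4% were called in either direction, 20.7% lower and 22.7% higher, so the number of calls is near the background and is no result about the group. The count was 1, MKI67 alone, without CAG replicate 1, without CAG replicate 3, with DESeq2 and with the replicate number as a block. At an unadjusted p under 0.05, 5 of the 10 were lower and 0 higher, beside 24.4% of all tested genes lower and 25.8% higher. DESeq2 and limma-trend, at an adjusted p under 0.05, also called 0 higher. The median log2 fold change of the 10 was -0.11, beside -0.0046 for all tested genes, and 9 of the 10 lay below 0, beside 50.6% of all tested genes. The median size of a change was 0.11 for the mitosis genes and 0.25 for all tested genes.

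**Figure D1:**
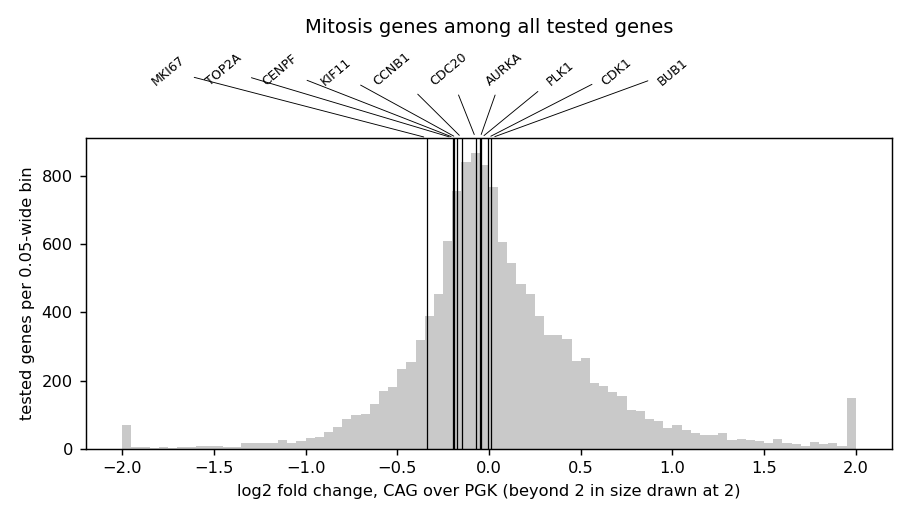
Log2 fold change of CAG over PGK for the 13400 tested genes (grey histogram, 0.05-wide bins, sizes beyond 2 drawn at 2), with a black line for each of the 10 mitosis genes. The 10 genes lie between -0.34 (MKI67) and 0.013 (BUB1), within the central peak.

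Library totals ranged from 4873883 to 5864157 counts in the CAG line and were 5582070 and 3712105 in the PGK line. Every mitosis gene had at least 156 counts in every library, so depth was not a limit on detection. Levels below are CPM, counts scaled to a common library size with factors from the trimmed mean of M values (TMM), and differences are on the log2 scale. Which part of a gene was counted is not given in the sources used here, so levels were not set against each other between genes. The identifiers of other genes were not paired with names here, so HEK293T markers and the other cell cycle genes were not analysed here.

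The 10 genes together took 0.129%, 0.132% and 0.128% of all counts in the CAG libraries, against 0.138% and 0.142% in the PGK libraries. The exact binomial 95% intervals cover counting error only. They ran from 0.1253% to 0.1348% over the CAG libraries and from 0.1346% to 0.1457% over the PGK libraries, so they overlapped slightly. The shares of the lines did not overlap, but no background for such sums over other genes was computed, so this is no result about the group. TOP2A, KIF11, MKI67 and CENPF, all lower on average in the CAG line, were among the members with the most counts. So was BUB1, which was not lower (log2 fold change 0.013). Which members account for the difference in share was not tested. Within the group, the SE of the log2 fold change ran from 0.071 (BUB1) to 0.10 (CDC20), with a median of 0.077, beside 0.10 for all tested genes.

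The kinase and cyclin that start mitosis did not pass the test. CDK1 had 127, 130.1 and 127 CPM in the CAG libraries, against 119.5 and 139 CPM in the PGK libraries. The CAG libraries all lay between the PGK libraries. CDK1 averaged 128 ± 2.0 CPM in the CAG line (SD, n = 3) and 129 ± 14.0 CPM in the PGK line (SD, n = 2), a log2 fold change of -0.0075 with a 95% interval from -0.16 to 0.15 (edgeR adjusted p = 0.947). CCNB1 had 101, 111 and 107 CPM in the CAG libraries, against 115 and 120.3 CPM in the PGK libraries, so that every CAG library lay below both PGK libraries. Its log2 fold change was -0.15 (95% interval -0.29 to -0.0013, edgeR adjusted p = 0.0965), just short of a call. The difference between the PGK libraries was larger for CDK1 (-0.22, replicate 1 minus replicate 2) than for CCNB1 (-0.059), where counting alone gives an SD of 0.085 and 0.090.

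PLK1, a kinase that acts from mitotic entry to cytokinesis, varied most between the PGK replicates. It had 100.5, 95.7 and 95.5 CPM in the CAG libraries, against 111 and 86.6 CPM in the PGK libraries. The CAG libraries again lay between the PGK libraries, whose log2 difference of 0.35 was the largest of the 10 genes and ran opposite to that of CDK1. The log2 fold change was -0.04 (95% interval -0.22 to 0.13, edgeR adjusted p = 0.718). It depended on which PGK library was used: 0.16 without PGK replicate 1 (edgeR adjusted p = 0.188) and -0.19 without PGK replicate 2 (edgeR adjusted p = 0.0495).

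AURKA encodes Aurora A, the kinase of centrosome maturation and spindle assembly that also activates PLK1. It had 76.9, 92.9 and 77.6 CPM in the CAG libraries, against 83.7 and 87.2 CPM in the PGK libraries. Here CAG replicate 2 stood above both PGK libraries and the other CAG libraries below them, so the lines overlapped. AURKA averaged 82.5 ± 9.08 CPM in the CAG line (n = 3) and 85.4 ± 2.48 CPM in the PGK line (n = 2). The log2 fold change of -0.05 (95% interval -0.23 to 0.13) did not pass the test (edgeR adjusted p = 0.682).

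BUB1 and CDC20 act in the spindle checkpoint, BUB1 as a kinase at unattached kinetochores and CDC20 as the activator of the anaphase-promoting complex that the checkpoint restrains. BUB1 had 152, 152 and 156 CPM in the CAG libraries, against 147 and 158 CPM in the PGK libraries. The means were 153 ± 2.11 CPM in the CAG line (n = 3) and 153 ± 8.33 CPM in the PGK line (n = 2), and the log2 fold change of 0.013 had a 95% interval from -0.13 to 0.16 (edgeR adjusted p = 0.899). CDC20 had 46.6, 40.1 and 43.4 CPM in the CAG libraries, against 47.0 and 43.7 CPM in the PGK libraries. The lines overlapped for both genes. The log2 fold change of CDC20 was -0.07 with the widest interval of the group, from -0.29 to 0.14 (edgeR adjusted p = 0.605), and CDC20 also had the fewest counts, 156 to 265 per library.

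**Figure D2:**
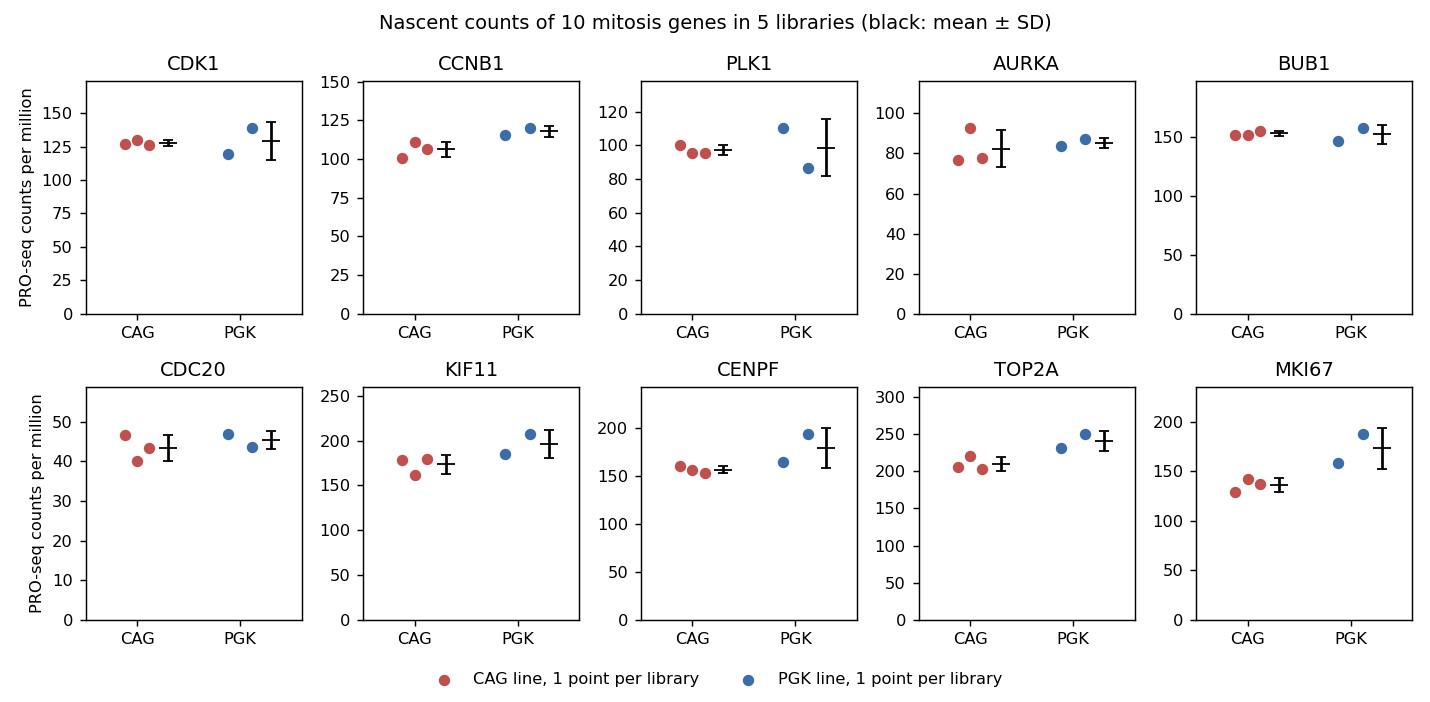
CPM of each mitosis gene by library, on axes that start at 0, with the CAG line (red, 3 libraries) left of the PGK line (blue, 2 libraries) and the mean ± SD in black. For CCNB1, KIF11, CENPF, TOP2A and MKI67 all CAG points lie below both PGK points, and for CDK1, PLK1 and BUB1 they lie between them.

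KIF11 and CENPF serve the spindle and its attachment to chromosomes. KIF11 encodes the kinesin Eg5, which pushes the spindle poles apart, and it had 179, 162 and 179.7 CPM in the CAG libraries, against 185 and 208 CPM in the PGK libraries. All CAG libraries lay below both PGK libraries, but CAG replicates 1 and 3 lay close to PGK replicate 1. The log2 fold change of -0.17 (95% interval -0.33 to -0.016) was not called (edgeR adjusted p = 0.0695). Without PGK replicate 1 the log2 fold change was -0.27, and without PGK replicate 2 it was -0.09, so its size depended on which PGK library was used.

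CENPF had 160.1, 156 and 153 CPM in the CAG libraries, against 165 and 194 CPM in the PGK libraries. The lines did not overlap, yet PGK replicate 1 stood nearer to the CAG libraries than to PGK replicate 2. CENPF averaged 157 ± 3.33 CPM in the CAG line (n = 3) and 179 ± 20.8 CPM in the PGK line (n = 2), a log2 fold change of -0.19 (SE 0.077, edgeR adjusted p = 0.0487). The log2 fold change was -0.07 without PGK replicate 2 (edgeR adjusted p = 0.474) and -0.32 without PGK replicate 1 (edgeR adjusted p = 0.000387). The call was also lost without any 1 of the CAG replicates (edgeR adjusted p from 0.0997 to 0.148), and 4 of the 12 alternatives kept it.

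TOP2A and MKI67 act on chromosome structure. TOP2A relieves the entanglement of sister DNA molecules and is needed for condensation, and it had 206, 220.1 and 203 CPM in the CAG libraries, against 231 and 251 CPM in the PGK libraries. Every CAG library lay below both PGK libraries, with means of 209.8 ± 9.04 CPM in the CAG line (n = 3) and 241 ± 13.6 CPM in the PGK line (n = 2). The log2 fold change was -0.20 (SE 0.076, edgeR adjusted p = 0.0357). The direction held in all 12 alternatives and the call in 7. It was lost without CAG replicate 1 (edgeR adjusted p = 0.155), without CAG replicate 3 (0.164) and without PGK replicate 2 (0.125), with DESeq2 (adjusted p = 0.0626) and with the replicate block (edgeR adjusted p = 0.267).

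MKI67, whose product coats mitotic chromosomes and keeps them apart, had 129, 143 and 137 CPM in the CAG libraries, against 158 and 188 CPM in the PGK libraries. The highest CAG library lay below the lower PGK library. MKI67 averaged 136 ± 6.73 CPM in the CAG line (n = 3) and 173 ± 20.9 CPM in the PGK line (n = 2), a fall of 20.8% in the fitted value, shown by a log2 fold change of -0.34 (SE 0.078, 95% interval -0.50 to -0.18, edgeR adjusted p = 0.000945). It was the only one of the 10 genes called in all 12 alternatives, with log2 fold changes from -0.47 (without PGK replicate 1) to -0.21 (without PGK replicate 2) and adjusted p from 1.3e-07 to 0.0146. In size, its change stood at percentile 60.8 of all tested genes, so many other genes differed more.

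**Figure D3:**
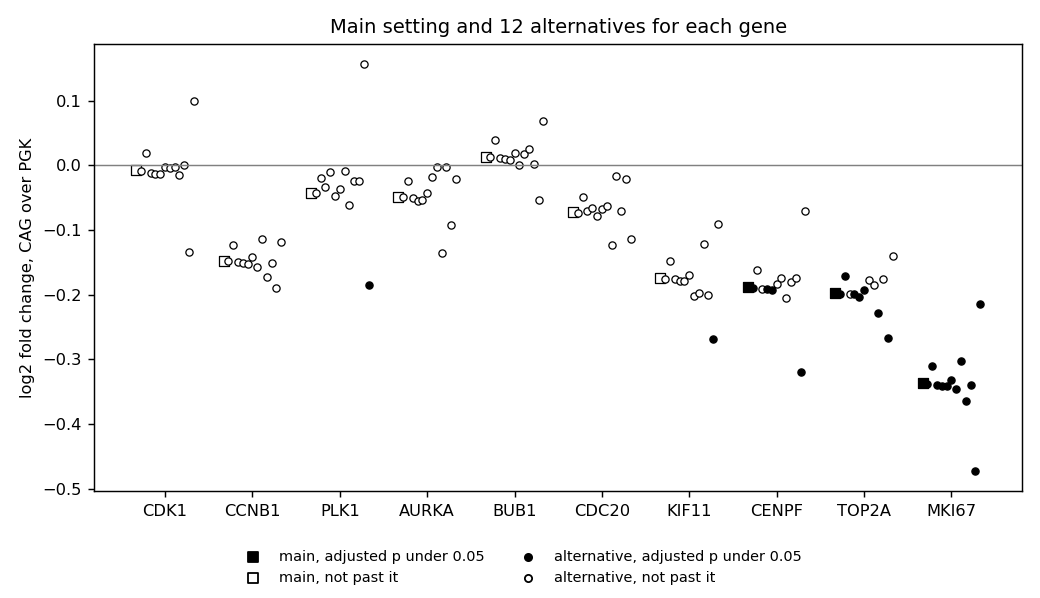
Log2 fold change of CAG over PGK for each mitosis gene in the reported setting (square) and in 12 alternatives (circles), filled where the adjusted p was under 0.05. All 13 symbols of MKI67 are filled and lie between -0.47 and -0.21, while TOP2A and CENPF are filled in some and PLK1 and KIF11 in 1 alternative each.

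No overlap between the lines was seen for 5 of the 10 genes (CCNB1, KIF11, CENPF, TOP2A and MKI67), always with the CAG line lower. Among all tested genes 61.2% did not overlap, 30.4% with every CAG library lower. For the 7 genes that were not called, the 95% intervals of the fold of CAG over PGK ran from 0.794 (lower bound of KIF11) to 1.12 (upper bound of BUB1). A missed call does not show that the lines were alike.

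Ratios between partner genes were taken from raw counts within a library, where scaling has no part. Their absolute size depends on gene length, so only the difference between lines can be read. The ratio of CDK1 to CCNB1 was 1.26, 1.175 and 1.19 in the CAG libraries, against 1.04 and 1.16 in the PGK libraries. The ratio of TOP2A to MKI67 was 1.59, 1.54 and 1.49 in the CAG libraries, against 1.46 and 1.33 in the PGK libraries. These 2 of 5 ratios were higher in every CAG library, by a narrow margin in each case. Only these 5 chosen pairs were computed. The count therefore has no background share over other gene pairs and is no result about the group. The ratios of PLK1 to AURKA, CDC20 to BUB1 and KIF11 to CENPF overlapped between the lines, and no test was made of any ratio.

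Each gene was next set beside its neighbours in the table, because earlier results of these data showed stretches of rows with a common level. How far neighbouring rows share a fold change over the whole table was not measured here. The order of the 10 mitosis genes in the table was the order of their positions on the 7 chromosomes where RefSeq places them, for 10 of 10. Neighbours were the 10 tested rows on each side. Their median log2 fold change lay between -0.28 and -0.21 for CDK1, KIF11 and MKI67, which RefSeq places on chromosome 10, and was -0.24 for BUB1 on chromosome 2. For the other 6 genes it lay between -0.10 (PLK1) and 0.012 (AURKA). The names of the neighbouring genes are not used here.

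**Figure D4:**
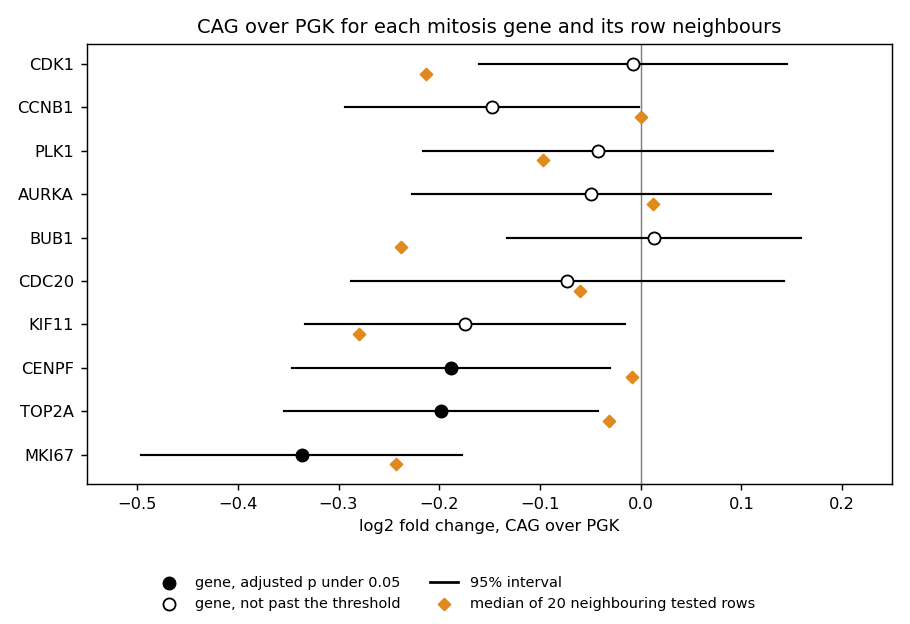
Log2 fold change of CAG over PGK for each mitosis gene (circle, filled where the adjusted p was under 0.05) with its 95% interval (line), and the median of its 20 neighbouring tested rows (orange diamond). The diamonds of CDK1, BUB1, KIF11 and MKI67 lie at -0.21 or below, and those of TOP2A, CENPF and CCNB1 lie near 0.

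MKI67 was lower in the CAG line together with its neighbours. Of its 20 neighbours 9 were called lower and 2 higher, and their median was -0.24. MKI67 lay 0.09 below that median. The distance was -0.07 with 5 rows on each side and -0.14 with 25. The SE of the fold change of MKI67 was 0.078, and no error of the distance itself was computed. The row interval from CDK1 to MKI67 on chromosome 10 held 331 tested genes with a median log2 fold change of -0.21. Of these, 150 were called lower and 27 higher. The interval from CDC20 to CENPF on chromosome 1 held 773, with a median of -0.036, and 167 were called lower and 120 higher. Over all tested genes 20.7% were called lower and 22.7% higher. KIF11 had 13 neighbours called lower and 2 higher, with a median of -0.28, and lay 0.10 above it. The part of the neighbourhood in the values of MKI67 and KIF11 was not tested.

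CDK1 and BUB1 stood above the median of their 20 neighbours, which was lower in the CAG line. For CDK1 this held only with the wider windows. With 5 rows on each side the neighbours' median was 0.039 for CDK1 and -0.037 for KIF11, but -0.26 for BUB1. CDK1 lay 0.21 above the median of its neighbours, of which 9 were called lower and 3 higher. BUB1 lay 0.25 above its neighbours' median, again with 9 called lower and 2 higher, and 15 of its 20 neighbours had a lower fold change than BUB1. With 5 rows on each side the distance was 0.27 for BUB1 but -0.05 for CDK1 and -0.14 for KIF11, so the sign for CDK1 and KIF11 turned with the number of rows, as it did for AURKA (0.012 with 5 rows on each side). With 25 rows it was 0.13 for BUB1, 0.18 for CDK1 and 0.09 for KIF11.

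TOP2A and CENPF fell beside neighbours with no such shift. The neighbours of TOP2A had a median of -0.03, with 3 called lower and 2 higher, and TOP2A lay 0.17 below it. The neighbours of CENPF had a median of -0.0089, with 2 called lower and 3 higher, and CENPF lay 0.18 below it. CCNB1 lay 0.15 below neighbours with a median of 0.00044. For these 3 genes the distance kept its sign with 5 and with 25 rows, and ranged from -0.29 to -0.06. PLK1 lay 0.05 above its neighbours' median, AURKA 0.06 below and CDC20 0.01 below, or 0.15 below with 5 rows on each side for CDC20.

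**Figure D5:**
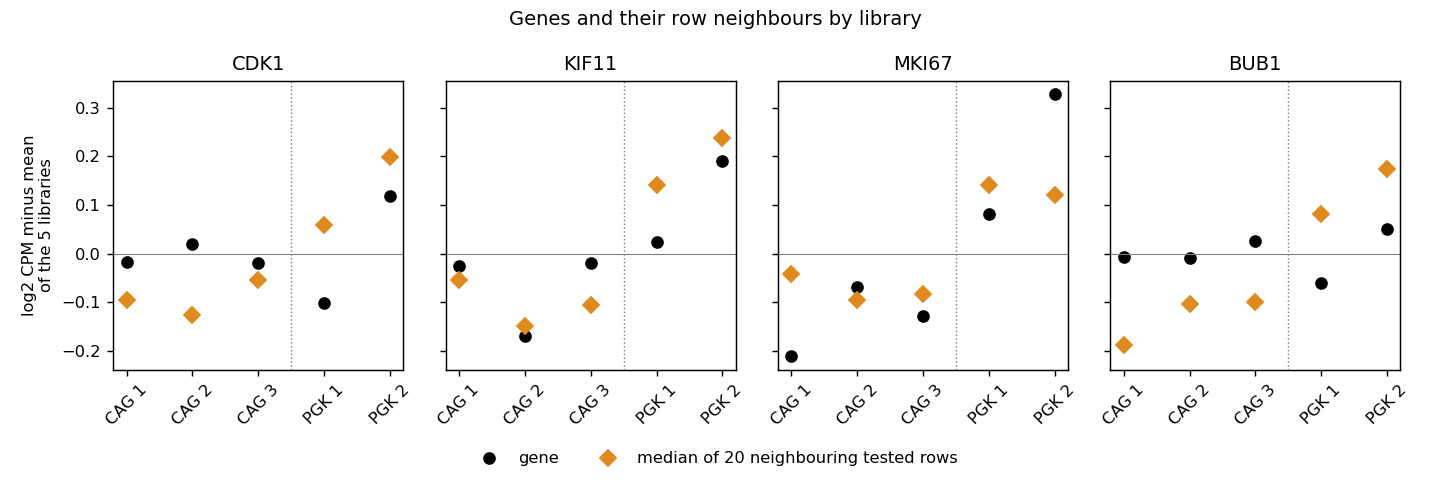
Level of CDK1, KIF11, MKI67 and BUB1 (black circles) and the median level of their 20 neighbouring tested rows (orange diamonds) in each library, as log2 CPM minus the mean of the 5 libraries, with the CAG libraries left of the PGK libraries. The neighbours lie at -0.19 to -0.04 in the CAG libraries and at 0.06 to 0.24 in the PGK libraries, while CDK1 and BUB1 overlap between the lines.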

How the data were processed

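The deposited table holds raw counts per Ensembl gene in 5 PRO-seq libraries. Tools named in the submitters' processing notes are featureCounts 2.0.3, HISAT2 2.2.1, Bowtie2 2.5.1, fastp 0.23.2, UMI-tools and cutadapt, with build hg19. The annotation, strand setting and counted part of a gene are not given there, so overlapping or antisense genes may share reads. The 18 rows without an identifier (at most 0.000448% of a library) were left out. All 5 columns were matched by sample description.

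Genes were kept by filterByExpr (minimum count 10, minimum total 15) and tested in 1 fit over 13400 genes with edgeR 4.0.16 (TMM, quasi-likelihood F test, no covariate, R 4.3.3). The SE is the absolute log2 fold change divided by the root of F, and intervals use the fit's degrees of freedom. The log2 CPM used a prior count of 2. The fit was tested on simulated data with 200 changed genes, whose changes were set larger than those of the mitosis genes. That simulation therefore cannot show how far calls of the size seen here can be trusted. Alternatives used DESeq2 1.42.0, limma-trend (limma 3.58.1), other scalings and filters, a replicate block and each library left out. The block was not taken as pairing, since nothing in the labels ties a number to a shared batch.

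The members and lists were chosen with earlier results of these data known. All 10 members were named by the rule. Names come from the identifiers and symbols given for the group. The other lists could not be matched, since the reference tables pair no Ensembl identifier with a symbol, and are not analysed here.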

Additional observations from a re-analysis of the deposited data

Results flagged for a closer look

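The 18 rows without a gene identifier, which entered no comparison, held 95 counts over the 5 libraries: 21, 15 and 21 in the CAG libraries and 25 and 13 in the PGK libraries. They are listed because they exceed the limit that a count of 0 allows. No line had 4 libraries, so no library was tested for standing apart.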

How the results depend on the processing

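Of the mitosis genes, 3 were called lower in the reported setting, 1 with DESeq2 or with the replicate block, and 1 to 4 with 1 library left out. CENPF lost its call with upper-quartile factors (-0.16), DESeq2 (-0.19), a minimum of 1 CPM in every library (-0.18) and the replicate block (-0.17), and ran from -0.32 to -0.071 with 1 library left out. TOP2A lost it with DESeq2 (-0.20) and the replicate block (-0.18), and ran from -0.27 to -0.14 with 1 library left out. KIF11 (-0.27 to -0.091) and PLK1 (-0.19 to 0.16) each gained a call without 1 PGK library. CDK1 turned sign with upper-quartile factors (0.018) and ran from -0.13 to 0.099 with 1 library left out. BUB1 turned sign with the replicate block (-0.00042) and ran from -0.055 to 0.068 with 1 library left out. The cause of these shifts was not tested. The replicate block changed no other call of the 10 genes. Libraries with the same number deviated from their line means with correlations of 0.038 and -0.068 over all tested genes, and were not taken as pairs. The count over all genes was 5818, 4054 with DESeq2, 4667 with the replicate block and 4754 to 5689 with 1 library left out. A lone PGK library was taken to vary as much as the CAG libraries do. The alternatives for the other cell cycle lists were not run, because their identifiers were not paired with names.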
